A study of Mus musculus with 45 samples.

Results

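The transcriptomic effect of homozygous Shank3 mutation was compared between the striatum and the hippocampus of adult mice. Of the 45 samples of the series, 20 entered the comparison, all those labelled as wild-type or as carrying the homozygous mutation in either region, with 5 samples in each of 4 groups. The series also holds heterozygous Shank3-HT mice and samples of the prefrontal cortex, which were used only where stated. The quantity of interest was an interaction: the difference between Shank3-HM and WT mice in the striatum minus the same difference in the hippocampus, computed per gene on log2(normalized count + 1). Of 18135 listed genes, 16672 had a mean normalized count of at least 10 over these 20 samples and were tested. All mice were C57BL/6J males aged 13 weeks. Shank3-HM mice carried on both chromosomes a Shank3 allele without exons 14 to 16, and WT mice carried neither mutant allele. The labels call the homozygous mice knock-out mice, whereas the columns of values name them KI. RNA was taken from whole dissected tissue, so that fewer cells of a type and less RNA per cell cannot be told apart. The labels do not say which striatal and hippocampal samples came from the same mouse, and give no litters, and the p-values measure the spread between these samples.

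SHANK3 is a scaffold of the postsynaptic density at excitatory synapses, where it links glutamate receptor complexes to Homer proteins and the actin cytoskeleton. It is abundant in the striatum, whose principal cells are GABAergic spiny projection neurons that receive cortical and thalamic glutamatergic input. The hippocampus consists mostly of glutamatergic granule and pyramidal neurons, in which other SHANK proteins are also expressed, and SHANK3 loss is best known for its effects on corticostriatal synapses.

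The samples carried the markers of their regions. Drd1 (dopamine receptor of the direct pathway) had 7318 to 10097 normalized counts in striatal samples and 67.6 to 127 in hippocampal samples, whereas Prox1 (granule cell transcription factor) had 451 to 624 and 2935 to 4037, respectively. Wfs1, listed as a marker of hippocampal area CA1, was at 3672 to 5143 in the striatum and at 2428 to 3189 in the hippocampus, so that it was higher in every striatal than in every hippocampal sample. The summed level of 5 cortical and claustral markers was 5254 in striatal WT sample 5 against 2542 to 2739 in the other striatal WT samples. Among striatal Shank3-HM samples, this sum was 3891 in sample 1 and 3598 in sample 5, against 2242 to 2748 in the others. The summed level of 5 spiny projection neuron markers was lowest in striatal WT sample 5 (94820 against 117030 to 131136 in the other striatal WT samples). Hippocampal WT samples 1 and 4 had the lowest mean Spearman correlations with their own group (0.987 and 0.989). The level of 5 choroid plexus markers in the hippocampus ranged from 3051 to 122309 in WT and from 6077 to 60198 in Shank3-HM samples. The part of these samples in the results was not tested beyond leaving them out.

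Shank3 itself was lower to the same degree in both regions. In the striatum, its normalized counts were 12189, 12644, 12705, 12740 and 11309 in WT mice and 6061, 5883, 6242, 5922 and 4569 in Shank3-HM mice. In the hippocampus, they were 7799, 7748, 8468, 7566 and 8139 in WT mice and 3755, 4020, 3678, 3866 and 3684 in Shank3-HM mice. The groups did not overlap in either region, and the Shank3-HM mean was 46.6% of the WT mean in the striatum and 47.8% in the hippocampus. The log2 effects were -1.11 ± 0.07 (SE) and -1.06 ± 0.07 (limma, Benjamini-Hochberg adjusted p = 1.28e-09 and 3e-09, n = 5 per group). Their difference was -0.05 ± 0.09 with a 95% confidence interval of -0.24 to 0.15 (adjusted p = 0.999), which bounds the regional difference in the loss of Shank3 mRNA at this precision.

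Most of the transcriptome did not pass the test of a regional difference. The interaction was past the threshold (adjusted p under 0.05) for 6 genes, 0.036% of those tested. Of these, 4 had a more positive effect in the striatum (0.024%) and 2 a more positive effect in the hippocampus (0.012%). Without adjustment, 863 genes had p under 0.05 (5.18%), of which 405 were more positive in the striatum (2.43%) and 458 in the hippocampus (2.75%). In 791 of the 863 (91.7%) the estimates of the 2 regions had opposite signs, which choosing genes for a large difference between the regions favours, so nothing is read from that share. The count of called interactions varied with the samples used, from 1 to 18 when each sample was left out in turn. It was 18 without striatal WT sample 5, 1 to 3 without any of 12 other samples (striatal WT 1 to 4, striatal Shank3-HM 1 and 2, and hippocampal WT 1 to 3 and Shank3-HM 1 to 3), and 13 without striatal WT sample 5 and hippocampal WT samples 1 and 4 together, of which 5 were among the 6. Within regions, 33 DEGs were found in the striatum (0.198%, with 25 upregulated or 0.15% and 8 downregulated or 0.048%) and 3 in the hippocampus (0.018%, with 2 upregulated or 0.012% and 1 downregulated or 0.006%). The striatal count was 71 without the same 3 samples, 52 without hippocampal WT sample 1 and 21 without striatal WT sample 2 or Shank3-HM sample 2, and the hippocampal count was 5 without striatal WT sample 5. Over all genes, the median effect was near 0 in both regions (0.000358 and 0.00359), and the effects of the 2 regions had a Pearson's r of 0.0552 and a Spearman's rho of 0.0654 across genes, which are not independent replicates.

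**Figure D1:**
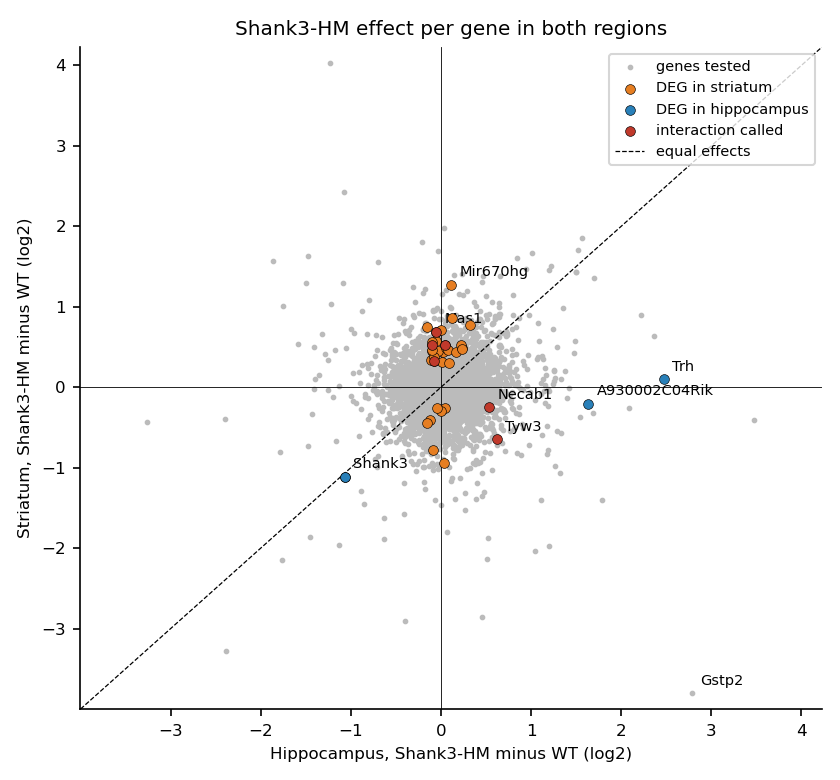
Shank3-HM effect of each of the 16672 genes tested in the hippocampus (horizontal axis, log2) and in the striatum (vertical axis, log2), with DEGs of each region and the 6 genes with a called interaction coloured (a DEG of both regions takes the hippocampal colour, and a gene with a called interaction takes that of the interaction). Shank3 lies near the dashed line of equal effects, at -1.06 on the horizontal and -1.11 on the vertical axis, while most striatal DEGs lie near 0 on the horizontal axis.

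Mas1, which encodes a G protein-coupled receptor for angiotensin-(1-7), had the smallest p of the interaction. In the striatum, Mas1 was at 165, 151, 137, 133 and 152 normalized counts in WT mice and at 231, 225, 258, 236 and 239 in Shank3-HM mice. In the hippocampus, it was at 1095, 1025, 1048, 988 and 1170 in WT mice and at 1061, 959, 1030, 1075 and 1009 in Shank3-HM mice. Every striatal Shank3-HM sample was above every striatal WT sample, an order shared by 1.09% of all genes, whereas the hippocampal groups overlapped. The mean rose from 147 ± 12.7 to 238 ± 12.1 (SD, n = 5) in the striatum, to 162% of WT, while the hippocampal mean was 96.4% of WT. The gene was 7.23 times as high in the hippocampus as in the striatum of WT mice, so that its striatal rise took place at the lower of the 2 levels. The interaction was 0.74 ± 0.10 on the log2 scale (95% confidence interval 0.54 to 0.95, adjusted p = 0.0025), made of a striatal effect of 0.69 (adjusted p = 1.22e-05) and a hippocampal effect of -0.05 (adjusted p = 0.985). Mas1 passed the threshold under all 32 alternative settings.

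Rimbp2 encodes a RIM-binding protein of the presynaptic active zone, where it couples calcium channels to the release machinery. Its striatal normalized counts were 3882, 4117, 3778, 4091 and 4754 in WT mice and 5821, 6183, 5889, 5789 and 5802 in Shank3-HM mice. Its hippocampal counts were 5335, 5419, 5923, 5028 and 5703 in WT mice and 5565, 5921, 5486, 5666 and 5577 in Shank3-HM mice. The striatal groups were separate by more than 1000 counts, and the hippocampal Shank3-HM samples lay within the range of the WT samples. Means were 4124 ± 380.0 and 5897 ± 165 (SD, n = 5) in the striatum, and the striatal Shank3-HM level came to lie beside the hippocampal WT level of 5482 ± 345. The interaction was 0.48 ± 0.08 (95% confidence interval 0.32 to 0.64, adjusted p = 0.033), with effects of 0.52 in the striatum and 0.04 in the hippocampus. It passed under 20 of 32 alternatives, with adjusted p from 0.000158 to 0.0748.

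Tpm1 encodes a tropomyosin, which coats and stabilizes actin filaments. Striatal normalized counts were 8894, 9052, 8856, 8904 and 8139 in WT mice and 11125, 11635, 10355, 10596 and 11240 in Shank3-HM mice. Hippocampal counts were 4298, 4407, 4209, 3950 and 4127 in WT mice and 3776, 3875, 4109, 3850 and 4340 in Shank3-HM mice. All striatal Shank3-HM samples exceeded all striatal WT samples, and the hippocampal groups overlapped, with 3 Shank3-HM samples below every WT sample. The striatal mean was 125% of WT and the hippocampal mean 95%. The interaction was 0.40 ± 0.07 (95% confidence interval 0.26 to 0.54, adjusted p = 0.033) and passed under 17 of 32 alternatives, with adjusted p from 0.0102 to 0.075. Because Tpm1 is also a gene of smooth muscle, the other 29 mural and fibroblast genes were summed, and their level overlapped between striatal WT (13530 to 15188) and Shank3-HM samples (13102 to 15576). Within that list, Tagln and Tpm2, a transgelin and a tropomyosin of smooth muscle, had interactions in the same direction as Tpm1, of 0.87 ± 0.31 (adjusted p = 0.833) and 0.78 ± 0.33 (adjusted p = 0.893), and these 3 were the genes of the list that were higher at unadjusted p under 0.05. Tagln was at 228 to 307 in striatal WT and 339 to 414 in striatal Shank3-HM samples without overlap, and Tpm2 at 252 to 375 and 359 to 479 with overlap. Their part in the Tpm1 result was not tested. None of the 4 defining mural and fibroblast markers was at 0 in these samples.

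Lamp5 encodes a neuronal membrane protein of the LAMP family that is found in subsets of interneurons and projection neurons. It was at 3153, 3020, 2901, 2955 and 2496 normalized counts in striatal WT mice and at 4434, 4003, 4487, 4143 and 3843 in striatal Shank3-HM mice. In the hippocampus, it was at 1017, 814, 844, 780.3 and 831 in WT mice and at 784, 692, 776, 857 and 906 in Shank3-HM mice. The striatal groups did not overlap, and the hippocampal groups did. The striatal mean rose to 144% of WT, and the interaction was 0.62 ± 0.11 (95% confidence interval 0.39 to 0.86, adjusted p = 0.0456). It passed under 13 of 32 alternatives, the fewest of the 6 genes, with adjusted p up to 0.265. Lamp5 is also a gene of cortical neurons: the other 29 cortical and claustral genes summed to 21825 to 33016 in striatal WT and 19892 to 30396 in striatal Shank3-HM samples, and striatal WT sample 5, with the highest sum of defining cortical markers, had the lowest striatal Lamp5 level. None of the 5 defining cortical markers was at 0 in the striatum. The part of cortical genes in the Lamp5 result was not tested.

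The remaining pair of genes had estimates of opposite sign in the 2 regions. Tyw3 encodes an enzyme of wybutosine synthesis, a modification of phenylalanine transfer RNA. Its striatal normalized counts were 385, 417, 408, 469 and 419 in WT mice and 279, 299, 316, 305 and 169 in Shank3-HM mice. Its hippocampal counts were 238, 200.1, 191, 279 and 240.4 in WT mice and 375, 444, 267, 318 and 368 in Shank3-HM mice. All striatal Shank3-HM samples were below the WT samples, an order shared by 0.756% of genes, while in the hippocampus 4 of 5 Shank3-HM samples were above every WT sample. The Shank3-HM mean was 65.2% of WT in the striatum and 154% of WT in the hippocampus. The interaction of -1.26 ± 0.22 (95% confidence interval -1.71 to -0.81, adjusted p = 0.033) was the largest in size of the 6, although neither regional effect passed by itself (-0.65, adjusted p = 0.104, and 0.62, adjusted p = 0.412). It passed under 17 of 32 alternatives, with adjusted p up to 0.239.

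Necab1 encodes an EF-hand calcium-binding protein of neurons. It was at 4773, 4361, 4237, 4000 and 4296 normalized counts in striatal WT mice and at 3401, 3769, 3925, 3331 and 3858 in striatal Shank3-HM mice. In the hippocampus, it was at 1360, 1681, 1435, 1319 and 1969 in WT mice and at 1945, 2437, 2580, 2011 and 2192 in Shank3-HM mice. Striatal Shank3-HM samples were all below WT samples, and in the hippocampus only Shank3-HM sample 1 fell within the WT range. The Shank3-HM mean was 84.4% of WT in the striatum and 144% of WT in the hippocampus, which brought the levels of the 2 regions closer to each other. The interaction was -0.78 ± 0.14 (95% confidence interval -1.06 to -0.50, adjusted p = 0.034), with effects of -0.25 (adjusted p = 0.553) and 0.53 (adjusted p = 0.0655). It passed under 15 of 32 alternatives, and its adjusted p was 0.0945 when striatal WT sample 5 and hippocampal WT samples 1 and 4 were left out together.

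**Figure D2:**
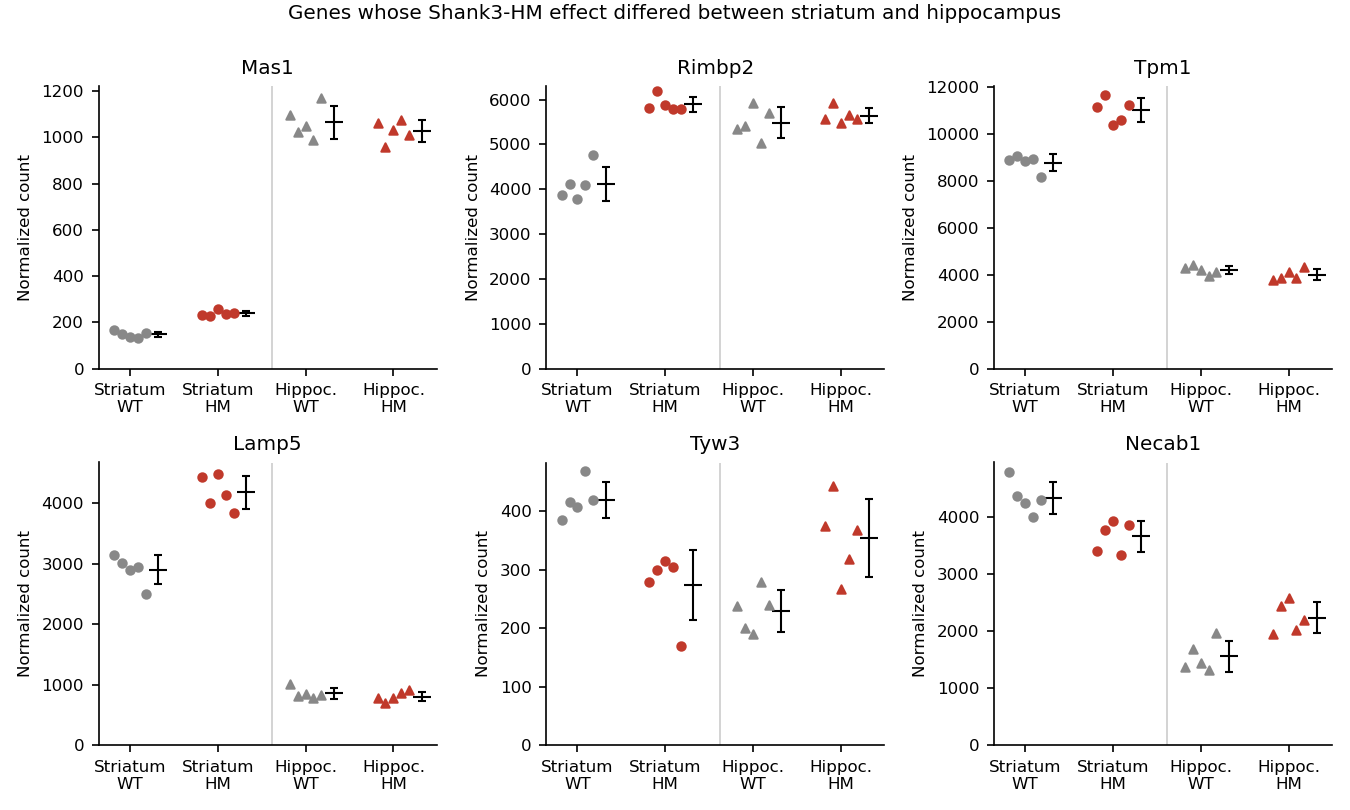
Normalized counts (vertical axes, from 0) of the 6 genes with a called interaction in each of the 20 samples, with WT in grey and Shank3-HM in red, circles for striatum and triangles for hippocampus, and the mean ± SD of 5 samples beside the points. Mas1, Rimbp2, Tpm1 and Lamp5 are separated between genotypes in the striatum and overlap in the hippocampus, whereas the means of Tyw3 and Necab1 are lower in Shank3-HM samples of the striatum and higher in those of the hippocampus.

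By annotation (GRCm38, GENCODE), the 4 genes that rose in the striatum and not detectably in the hippocampus lie on 4 chromosomes: Mas1 at chr17:12841079-12868143, minus strand, Rimbp2 at chr5:128757791-128953486, minus strand, Tpm1 at chr9:67022590-67049406, minus strand, and Lamp5 at chr2:136052239-136069917, plus strand. Tyw3 lies at chr3:154576431-154597104, minus strand, and Necab1 at chr4:14952245-15149794, minus strand, and no promoter is shown for either. The sequences below are those of Mas1, Rimbp2, Tpm1 and Lamp5. The 250 bases upstream of the annotated RefSeq start (GRCm38.p6) of these 4 genes, grouped by the direction of the interaction, are shown so that their proximal promoters can be set side by side. Whether the 4 genes vary together was not tested. The bases are in lower case on the strand of the gene, with matches to TGACG or CCAAT on either strand in capitals. For Lamp5, the more upstream of 2 listed starts is given.
Mas1 (chr17:12868144-12868393, minus strand): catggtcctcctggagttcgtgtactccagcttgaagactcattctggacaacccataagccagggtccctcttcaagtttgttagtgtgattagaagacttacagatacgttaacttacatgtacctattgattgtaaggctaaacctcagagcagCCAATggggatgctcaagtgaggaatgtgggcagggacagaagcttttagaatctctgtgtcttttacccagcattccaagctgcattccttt
Rimbp2 (chr5:128953487-128953736, minus strand): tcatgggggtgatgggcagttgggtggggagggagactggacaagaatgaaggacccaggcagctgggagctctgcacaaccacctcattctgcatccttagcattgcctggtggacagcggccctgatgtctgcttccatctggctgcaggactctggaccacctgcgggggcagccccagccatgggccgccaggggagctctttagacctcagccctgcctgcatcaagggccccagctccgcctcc
Tpm1 (chr9:67049214-67049463, minus strand): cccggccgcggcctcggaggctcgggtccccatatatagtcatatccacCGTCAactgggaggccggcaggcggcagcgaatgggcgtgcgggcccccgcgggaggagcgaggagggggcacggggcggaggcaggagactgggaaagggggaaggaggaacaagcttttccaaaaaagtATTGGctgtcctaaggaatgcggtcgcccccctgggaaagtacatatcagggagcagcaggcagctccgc
Lamp5 (chr2:136052089-136052338, plus strand): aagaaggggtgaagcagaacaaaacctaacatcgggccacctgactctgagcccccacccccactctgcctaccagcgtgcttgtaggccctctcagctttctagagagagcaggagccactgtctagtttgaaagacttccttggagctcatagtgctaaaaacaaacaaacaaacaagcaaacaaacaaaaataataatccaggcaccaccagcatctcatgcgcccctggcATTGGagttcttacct

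These windows did not share an evident composition. Their GC content was 45.2% for Mas1, 63.6% for Rimbp2, 65.2% for Tpm1 and 49.2% for Lamp5. The full cyclic AMP response element TGACGTCA, present in 1.55% of 32851 upstream windows of the same length, was in none of the 4, and its shorter core TGACG was in Tpm1 alone (17.8% of all windows). The AP-1 element TGANTCA (6.75%) and the TATA sequence TATAAA (12.4%) were in none of the 4. The CCAAT sequence was in Mas1, Tpm1 and the Lamp5 window shown, but not in the window of the other Lamp5 start, against 33.8% of all windows. These are matches of letters, and the factors were not measured.

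The same 6 genes were then read in the other mice and the other region of the series, in a single limma fit of all 45 samples. In heterozygous Shank3-HT mice, the striatal effects of Mas1, Rimbp2, Tpm1 and Lamp5 were -0.01, 0.03, 0.02 and 0.17 on the log2 scale, with adjusted p from 0.81 to 0.994. The interaction in Shank3-HT mice was -0.64 for Tyw3 and -0.64 for Necab1 (adjusted p = 0.87 and 0.252), and Necab1 was upregulated in the Shank3-HT hippocampus by 0.53 (adjusted p = 0.0142). Shank3-HT and Shank3-HM mice were compared with the same WT samples, so their effects are not independent. In the prefrontal cortex of Shank3-HM mice, Mas1, Rimbp2, Tpm1 and Lamp5 had effects of -0.04, 0.09, 0.03 and -0.25, with adjusted p from 0.716 to 0.976. The difference between the striatal and the cortical effect was 0.43 for Rimbp2 (adjusted p = 0.0405), 0.73 for Mas1 (adjusted p = 0.0538), 0.77 for Lamp5 (adjusted p = 0.0525), 0.30 for Tpm1 (adjusted p = 0.288), -1.01 for Tyw3 (adjusted p = 0.695) and -0.32 for Necab1 (adjusted p = 0.854). It holds the same striatal samples on which the 6 genes were called. These differences and their p-values are therefore not independent of that choice and are a description.

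The 3 hippocampal DEGs were Shank3, which was also a striatal DEG, Trh and A930002C04Rik. Trh encodes the precursor of thyrotropin-releasing hormone. In the hippocampus, it was at 6.15, 1.66, 4.36, 5.14 and 4.29 normalized counts in WT mice and at 16.8, 77.1, 40, 12.2 and 22.2 in Shank3-HM mice, while in the striatum it was at 77.1 to 106 in WT mice and at 70.8 to 124 in Shank3-HM mice. All hippocampal Shank3-HM samples were above the WT samples, an order shared by 0.492% of genes, but their own spread was wide. The hippocampal effect was 2.47 ± 0.35 (adjusted p = 0.00504), and the interaction of -2.37 ± 0.50 did not pass (adjusted p = 0.0995). A930002C04Rik, an antisense RNA whose reads can be told from those of the opposite strand only if the strand was used in counting, which is not given in the sources used here, was listed at 0 in all 5 hippocampal WT samples and at 1.01, 1.02, 3.3, 3.34 and 2.83 in Shank3-HM samples, against 37.2 to 67.9 in striatal WT and 42.5 to 51 in striatal Shank3-HM samples, and its hippocampal values are near the lowest the data hold. Its hippocampal effect (adjusted p = 0.0341) passed under 10 of 30 alternatives and in 4 of 20 fits that left out a sample, with adjusted p up to 0.981, whereas that of Trh passed under 29 of 30. Ano2, a calcium-activated chloride channel, and Hif3a, a hypoxia-inducible factor subunit, were also in the list of 7 hippocampal genes that the study chose on these samples. Ano2 was at 56.5 to 90.5 in hippocampal WT and 118 to 162 in hippocampal Shank3-HM samples without overlap, at 639 to 1340 and 802 to 1281 in the striatum, and had an interaction of -0.88 ± 0.26 (adjusted p = 0.58). Hif3a had effects of 0.39 and 0.79, in the same direction. Of the 7 genes, none had a called interaction, which is not independent of how they were chosen.

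Beside Tyw3 and Necab1, 20 further genes had unadjusted p under 0.05 in both regions with opposite signs, 22 in all or 0.132% of genes, against 63 with the same sign (0.378%). The 8 with the smallest interaction p were described. Slc35f1, an orphan solute carrier, was at 2528 to 2675 normalized counts in striatal WT and 2073 to 2416 in striatal Shank3-HM samples, and at 1129 to 1370 and 1273 to 1599 in the hippocampus. Its interaction was -0.46 ± 0.10 (adjusted p = 0.0995), and the striatal groups alone were separate. Kitl, the ligand of the receptor tyrosine kinase KIT, was at 1560 to 1867 and 1310 to 1775 in the striatum and at 605 to 784 and 817 to 937 in the hippocampus, where the groups were separate (interaction -0.54 ± 0.11, adjusted p = 0.0995). Prkg2, a cyclic GMP-dependent protein kinase, had effects of -0.44 in the striatum and 0.41 in the hippocampus, and Zcchc12, a zinc finger protein, -0.34 and 0.17. Fdft1, the squalene synthase of cholesterol synthesis, was the exception in direction, with 0.21 in the striatum and -0.10 in the hippocampus, from 1710 to 1793 in striatal WT to 1960 to 2066 in striatal Shank3-HM samples. Gstp2, a glutathione transferase, was at 59.8, 234, 87.1, 109 and 121 in striatal WT and 1.86, 5.02, 77.8, 3.33 and 4.5 in striatal Shank3-HM samples, and at 1.9 to 3.38 in hippocampal WT and 0.577, 5.99, 37.3, 124 and 153 in hippocampal Shank3-HM samples. Its interaction of -6.58 ± 1.37 did not pass (adjusted p = 0.0995), its samples ranged from 0.577 to 153 counts within a single group, and near-identical Gstp paralogs can share reads with it, so its values are uncertain.

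DEGs of the striatum were for the most part near 0 in the hippocampus. Apart from Shank3, the 25 upregulated genes had a median effect of 0.485 in the striatum and 0.00912 in the hippocampus, where 13 estimates were above 0 and 12 below, between -0.151 and 0.327. The 7 downregulated genes had medians of -0.408 and -0.0413. These genes were selected on their striatal effect, which enters the interaction, so their interaction estimates are a description. Nptx2, a secreted neuronal pentraxin that clusters AMPA receptors, was at 492, 525, 537, 598 and 742 normalized counts in striatal WT and 1157, 873, 836, 884 and 1088 in striatal Shank3-HM samples, and at 336 to 505 and 351 to 402 in the hippocampus. The striatal groups did not overlap, and the interaction was 0.89 ± 0.17 (adjusted p = 0.0677). Hhipl1, a relative of the hedgehog-interacting protein, had an interaction of 0.63 ± 0.12 (adjusted p = 0.0558), and Mpp3, a membrane-associated guanylate kinase, 0.55 ± 0.11 (adjusted p = 0.0677).

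Of the other striatal DEGs, 8 are given as examples and not as a functional group. Plekha2, a phosphoinositide-binding adaptor, had an effect of 0.71 in the striatum and an estimate of -0.00063 in the hippocampus. Kremen1, a Dickkopf co-receptor in Wnt signalling, had 0.44 and 0.02, and Lrrc55, an auxiliary subunit of BK potassium channels, 0.57 and -0.10. Rgs4, which accelerates GTP hydrolysis of G protein alpha subunits, rose from 14706 to 22206 to 25450 to 28978 normalized counts in the striatum and was at 2882 to 3448 and 3172 to 3610 in the hippocampus. Among downregulated genes, Stc1, the secreted hormone stanniocalcin, fell from 207 to 308 to 95.3 to 177 in the striatum and was at 69.5 to 113 and 86.3 to 109 in the hippocampus. Dcaf7, a WD-repeat adaptor protein, had -0.26 and 0.04. Others had positive estimates in both regions: Ddit4, an inhibitor of mTORC1 that glucocorticoids induce, had 0.48 and 0.24, and Lgi2, a secreted leucine-rich repeat protein, 0.49 and 0.23.

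**Figure D3:**
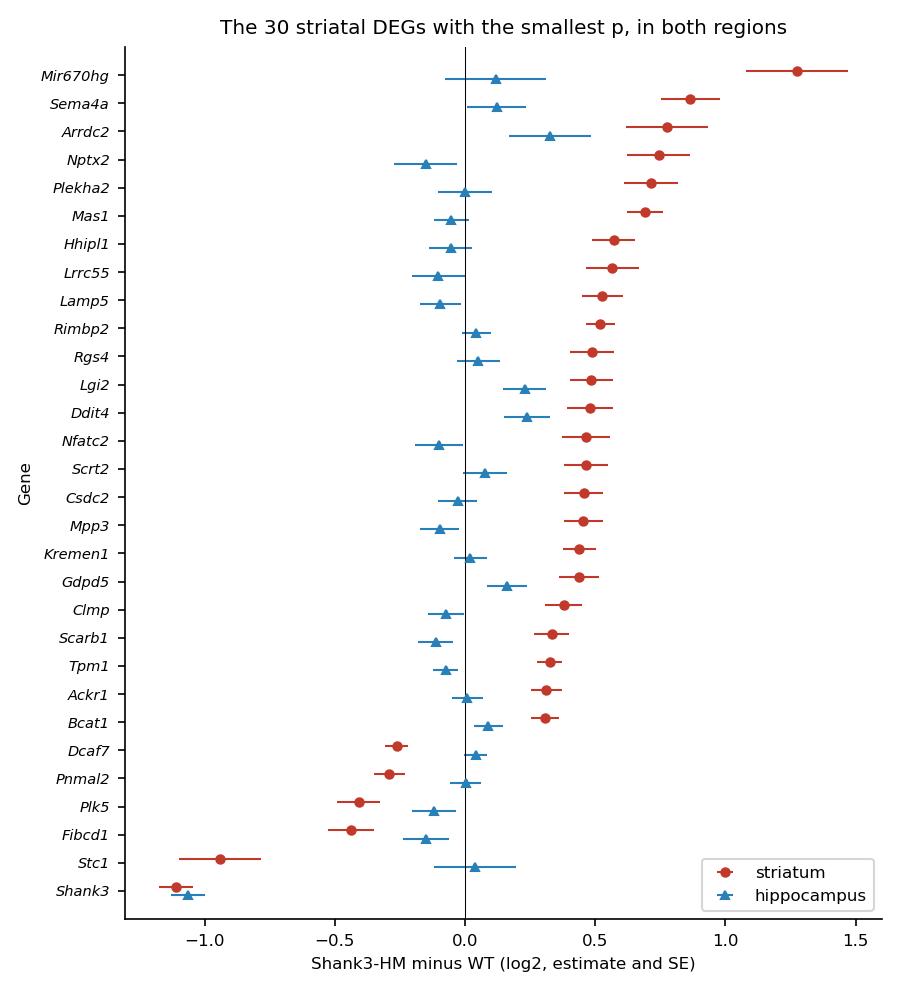
Estimate and SE of the Shank3-HM effect (horizontal axis, log2) in the striatum (red circles) and the hippocampus (blue triangles) for the 30 striatal DEGs with the smallest p, ordered by the striatal estimate (vertical axis, genes). Apart from Shank3, the hippocampal estimates stay between -0.151 and 0.327.

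When the 2 regions were averaged, 9 genes had a mean effect past the threshold (0.054%, with 6 upregulated or 0.036% and 3 downregulated or 0.018%). Shank3, Mas1, Rimbp2, Sema4a (a semaphorin), Lgi2, Ddit4 and Gdpd5 (a glycerophosphodiester phosphodiesterase) were also striatal DEGs. Cldn5, the tight junction claudin of brain endothelium, and Rps4l passed in the average but in neither region alone. Rps4l, related to ribosomal protein S4, is annotated as a transcribed processed pseudogene, and its reads may be shared with Rps4x. The mean effect passed under 14 of 31 alternatives for Cldn5, 17 of 31 for Rps4l and 15 of 31 for Gdpd5. Cldn5 was at 601 to 701 normalized counts in striatal WT and 481 to 626 in striatal Shank3-HM samples, and at 588 to 781 and 508 to 552 in the hippocampus. Its effects were -0.27 and -0.35, and the interaction was 0.08 ± 0.11 with a 95% confidence interval of -0.15 to 0.31. The 29 endothelial genes, Cldn5 among them, had median effects of -0.093 in the striatum and -0.0711 in the hippocampus. At unadjusted p under 0.05, 1 was higher and 4 lower in the striatum, and 0 higher and 2 lower in the hippocampus.

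Synaptic genes were counted by 4 lists, of which the members are described by counts and medians beside the same over all genes (7994 of 16672 estimates above 0, median interaction -0.00756, 5.18% at unadjusted p under 0.05). Of 40 postsynaptic scaffold genes, 28 had a lower effect in the striatum than in the hippocampus, with a median interaction of -0.0663. At unadjusted p under 0.05, 1 was higher and 2 were lower. Among these, Homer1, which binds SHANK3 directly, had effects of -0.19 in the striatum and 0.10 in the hippocampus (interaction adjusted p = 0.891). Tanc1 was the gene that was higher, with an interaction of 0.21 (adjusted p = 0.893). Of 38 glutamate receptor genes and their auxiliary subunits, 24 were lower (median -0.0611), and 6 had unadjusted p under 0.05, all lower. These included Shisa9 and Cacng3, auxiliary subunits of AMPA receptors, with interactions of -0.29 and -0.36 (adjusted p = 0.517 and 0.539), and Grik3, a kainate receptor subunit, with -0.35 (adjusted p = 0.53). Without striatal WT sample 5 and hippocampal WT samples 1 and 4, the 2 medians were -0.00569 and 0.0147, so the direction of the glutamate receptor median turned, while 8 of its genes were lower and 2 higher at unadjusted p under 0.05. The postsynaptic scaffold median was -0.0396 without hippocampal WT sample 1 alone, and the glutamate receptor median was -0.118 without striatal Shank3-HM sample 5 and -0.0168 without striatal WT sample 5. Of 41 presynaptic genes, 24 were higher (median 0.0275, with 0.105 without the 3 samples and 0.000482 without hippocampal WT sample 2), with 2 higher and 3 lower at unadjusted p under 0.05 and, without the 3 samples, 13 higher and 2 lower. The list was led by Rimbp2 and Nptx2, and Unc13c, a vesicle-priming protein, had -0.65 (adjusted p = 0.804). Of 31 GABA-related genes, 12 were higher and 19 lower (median -0.0419, with 0.0368 without the 3 samples and -0.00223 without hippocampal WT sample 4). At unadjusted p under 0.05, 2 were higher and 1 lower. Gad1, the main enzyme of GABA synthesis, had 0.19 (adjusted p = 0.842), and Gabrg3, a GABA-A receptor subunit, had -0.23 (adjusted p = 0.949).

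Genes that mark the principal neurons of each region were counted next. Of 44 spiny projection neuron genes, 26 were lower in the interaction, with a median of -0.0469, and 9 had unadjusted p under 0.05, of which 5 were higher and 4 lower. The median was -0.109 without striatal WT sample 5 and -0.0126 without striatal WT sample 2, and without the 3 samples that stand apart it was -0.122, with 32 of 44 genes lower and 10 lower and 3 higher at unadjusted p under 0.05. The 5 defining spiny projection neuron markers summed to 1675 to 2313 in hippocampal WT and 1819 to 2430 in hippocampal Shank3-HM samples, which overlapped, and none was at 0. Meis2, a homeobox factor of striatal neurons, and Arpp21, a cyclic AMP-regulated phosphoprotein, had interactions of -0.40 and -0.31 (adjusted p = 0.239 and 0.53), whereas Actn2, an actin-binding alpha-actinin, had 0.28 (adjusted p = 0.87). Of 35 hippocampal subfield genes, 18 were higher and 17 lower (median 0.0122, and -0.0426 without striatal Shank3-HM sample 5). Spink8 and C1ql2, markers of pyramidal and granule cells, had interactions of 1.35 and 0.74 (adjusted p = 0.539 and 0.747). Their striatal levels were low, 6.75 to 22.7 in WT against 17.8 to 43.6 in Shank3-HM samples for Spink8 and 6.5 to 13.7 against 9.38 to 17.5 for C1ql2. In the other direction, Fibcd1, another defining marker of the list, fell in the striatum from 419 to 506 to 279 to 398 without overlap (effect -0.44 ± 0.09, adjusted p = 0.0336), with an interaction of -0.29 (adjusted p = 0.893), and Mpped1 had an interaction of -0.36 (adjusted p = 0.842). Of the list, 3 genes were higher and 2 lower at unadjusted p under 0.05. Of 30 cortical and claustral genes, 14 were higher, and the median interaction of -0.0231 went from -0.179 without striatal Shank3-HM sample 1 to 0.138 without striatal WT sample 5.

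The list with the most uniform sign was that of oligodendrocyte genes, which make myelin. All 30 had a higher effect in the striatum than in the hippocampus, with a median interaction of 0.256, from medians of 0.178 in the striatum and -0.0723 in the hippocampus, and 5 had unadjusted p under 0.05, while no gene passed after adjustment. Trf, the transferrin that oligodendrocytes secrete, was at 7053 to 8698 normalized counts in striatal WT and 7414 to 11892 in striatal Shank3-HM samples, and at 5756 to 7905 and 4781 to 6136 in the hippocampus, with an interaction of 0.51 ± 0.15 (adjusted p = 0.539). Genes of a cell type share the composition of the sample and are not independent. The mean log2 level of the list was 10.99, 10.99, 11.31, 11.06 and 11.2 in striatal WT samples and 11.23, 11.66, 11.36, 11.03 and 11.09 in striatal Shank3-HM samples. In the hippocampus it was 10.78, 10.89, 10.72, 10.8 and 10.82 in WT samples and 10.81, 10.72, 10.61, 10.84 and 10.59 in Shank3-HM samples. The groups overlapped in both regions, and striatal Shank3-HM sample 2 was the highest of all. Without that sample the median interaction was 0.157. The summed level of the 30 genes was 227472 to 298724 in striatal WT, 250223 to 380774 in striatal Shank3-HM, 182351 to 196604 in hippocampal WT and 169362 to 202014 in hippocampal Shank3-HM samples, with none of the 4 defining markers at 0.

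Cytosolic ribosome and respiratory chain genes also had mostly positive interactions, whose size varied with single samples. Of 79 ribosomal protein genes, 75 were higher in the striatum (median 0.134), and of 76 respiratory chain genes, 72 (median 0.134), with 8 and 9 at unadjusted p under 0.05 and none after adjustment. Rpl38, a protein of the large ribosomal subunit, and Atp5j, a subunit of ATP synthase, had interactions of 0.38 and 0.28. The mean log2 level of the ribosomal list was 11.61 in hippocampal WT sample 1 and 11.03 to 11.26 in the other hippocampal WT samples, against 11.06 to 11.29 in hippocampal Shank3-HM samples. Without hippocampal WT sample 1, the medians were 0.051 and 0.0547, and without hippocampal WT sample 2, 0.205 and 0.173. Without the 3 samples that stand apart, 56 of 79 and 52 of 76 genes were higher, with 0 higher and 1 lower ribosomal gene and 3 higher respiratory chain genes at unadjusted p under 0.05.

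Genes of the circadian clock had mostly negative interactions. Of 22 clock genes, 20 had a lower effect in the striatum than in the hippocampus (8678 of 16672 over all genes). The median interaction was -0.152, with medians of -0.0701 in the striatum and 0.0532 in the hippocampus. At unadjusted p under 0.05, 0 were higher and 2 lower (9.09%, against 5.18% of all genes). The genes of the list are not independent counts. Npas2, a partner of BMAL1, had effects of -0.11 and 0.24, Tef, a PAR-domain clock output factor, -0.14 and 0.04, and Per2, a period protein, -0.13 and 0.12, and none passed after adjustment. Per sample, the mean log2 level of the list was 11.0 to 11.2 in striatal WT and 11.01 to 11.11 in striatal Shank3-HM samples, and 10.42 to 10.55 in hippocampal WT and 10.54 to 10.66 in hippocampal Shank3-HM samples, so that the groups overlapped in both regions. Leaving out each sample in turn moved the median between -0.184 and -0.121, and 19 of 22 genes were lower without the 3 samples that stand apart.

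Glucocorticoid-responsive genes had positive medians in both regions. Of 31 genes, 12 were upregulated in the striatum and 7 in the hippocampus at unadjusted p under 0.05, and none was downregulated in either region, against 3.86% and 2.8% of all genes upregulated, and 3.4% and 1.44% downregulated, at the same level. The medians were 0.223 and 0.131, and the median interaction of 0.124 was 0.0206 without the 3 samples that stand apart. Arrdc2, an arrestin-domain protein, had 0.78 and 0.33, and Klf9, a Kruppel-like factor, 0.22 and 0.04. Of 46 activity-regulated genes, 24 were higher and 22 lower in the interaction (median 0.0242, and -0.0976 to 0.111 when each sample was left out in turn). Within that list, Inhba, a subunit of activin, was at 512 to 684 normalized counts in striatal WT and 737 to 946 in striatal Shank3-HM samples without overlap (striatal effect 0.49, adjusted p = 0.0564) and was at 179 to 241 and 178 to 245 in the hippocampus (interaction 0.56 ± 0.15, adjusted p = 0.385).

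**Figure D4:**
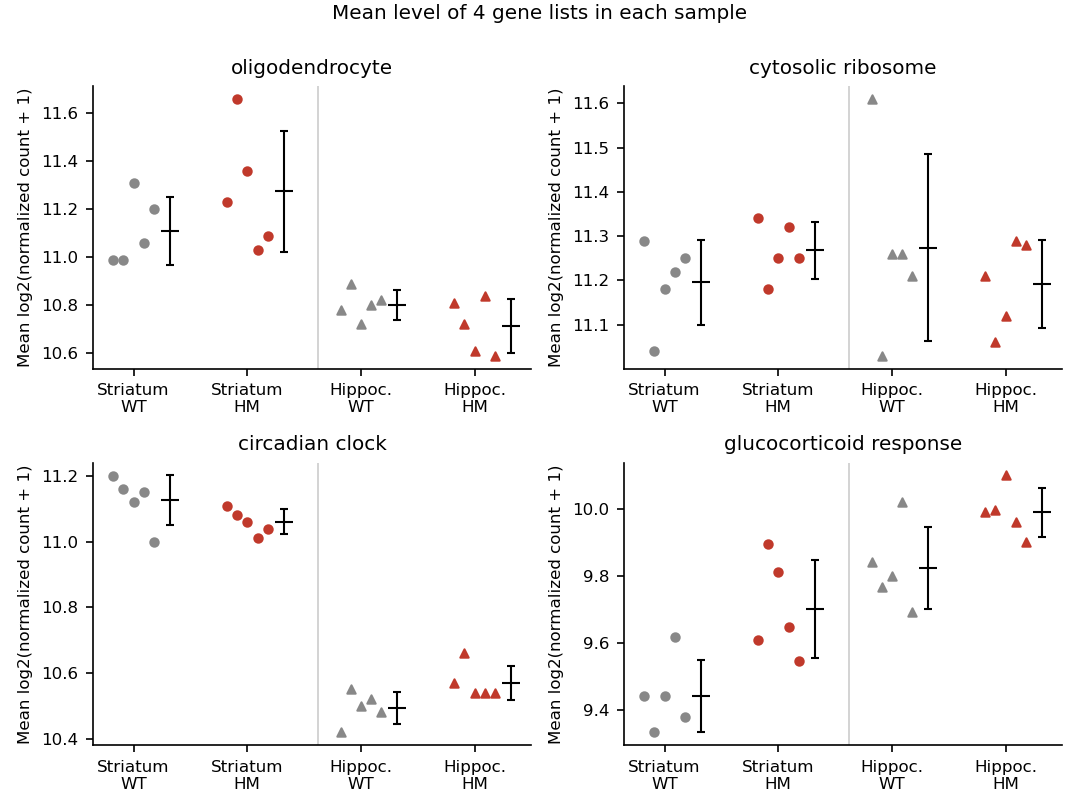
Mean log2(normalized count + 1) of the oligodendrocyte, cytosolic ribosome, circadian clock and glucocorticoid response lists (vertical axes, not starting at 0) in each of the 20 samples, with WT in grey, Shank3-HM in red and the mean ± SD of 5 samples beside the points. Striatal Shank3-HM sample 2 stands high for oligodendrocyte genes (11.66), and hippocampal WT sample 1 for ribosomal genes (11.61).

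The other lists had medians nearer to 0 or wide variation. The median interaction was 0.0288 for 30 astrocyte, 0.0461 for 26 microglia, -0.0468 for 29 endothelial and -0.0427 for 30 mural and fibroblast genes, with 2, 0, 1 and 4 genes at unadjusted p under 0.05. Leaving out each sample in turn moved these medians between 0.0134 and 0.0542, 0.0248 and 0.0876, -0.0899 and 0.0118, and -0.102 and 0.0563, so that the sign of the endothelial median turned without hippocampal WT sample 1 and that of the mural median without striatal Shank3-HM sample 5. It was 0.0135 for 84 spliceosome, -0.0295 for 60 extracellular matrix and -0.018 for 12 cholinergic neuron genes, with 1, 2 and 2 such genes, and the medians turned to -0.000889 without hippocampal WT sample 1, to 0.0217 without hippocampal Shank3-HM sample 2 and to 0.194 without hippocampal Shank3-HM sample 5, respectively. Chrnb4, a nicotinic acetylcholine receptor subunit in the cholinergic and the habenular list, was at 8.16, 17.3, 9.54, 13.2 and 10.2 normalized counts in striatal WT and 49.4, 47.3, 43.3, 44.5 and 28.6 in striatal Shank3-HM samples without overlap, and at 5.85 to 33.6 and 3.76 to 24.5 in the hippocampus (interaction 2.01 ± 0.60, adjusted p = 0.559). Ecel1, the other cholinergic gene at unadjusted p under 0.05, went the other way (interaction -0.85, adjusted p = 0.824). Of 28 neuropeptide genes, 20 were higher (median 0.069, with 0.236 without striatal WT sample 5 and 0.0324 without hippocampal WT sample 1). At unadjusted p under 0.05, 3 were higher and 1, Trh, was lower (interaction -2.37). Pdyn and Tac1, the peptide precursors of direct-pathway neurons, had striatal effects of 0.31 and 0.24 and hippocampal effects of 0.02 and -0.12 (interaction adjusted p = 0.911 and 0.893). Of 18 thalamic and habenular genes, 10 were higher (median 0.0822, with 0.17 without striatal WT sample 5 and -0.00889 without striatal WT sample 2). Of 126 ASD-risk genes, 90 were lower (median -0.0527, and -0.00128 without hippocampal WT sample 1), but 63 were higher and 63 lower without the 3 samples. The choroid plexus list of 25 genes had a median of -0.147 and no gene at unadjusted p under 0.05, and its median went from -0.665 without hippocampal WT sample 4 to 0.256 without hippocampal WT sample 2.

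**Figure D5:**
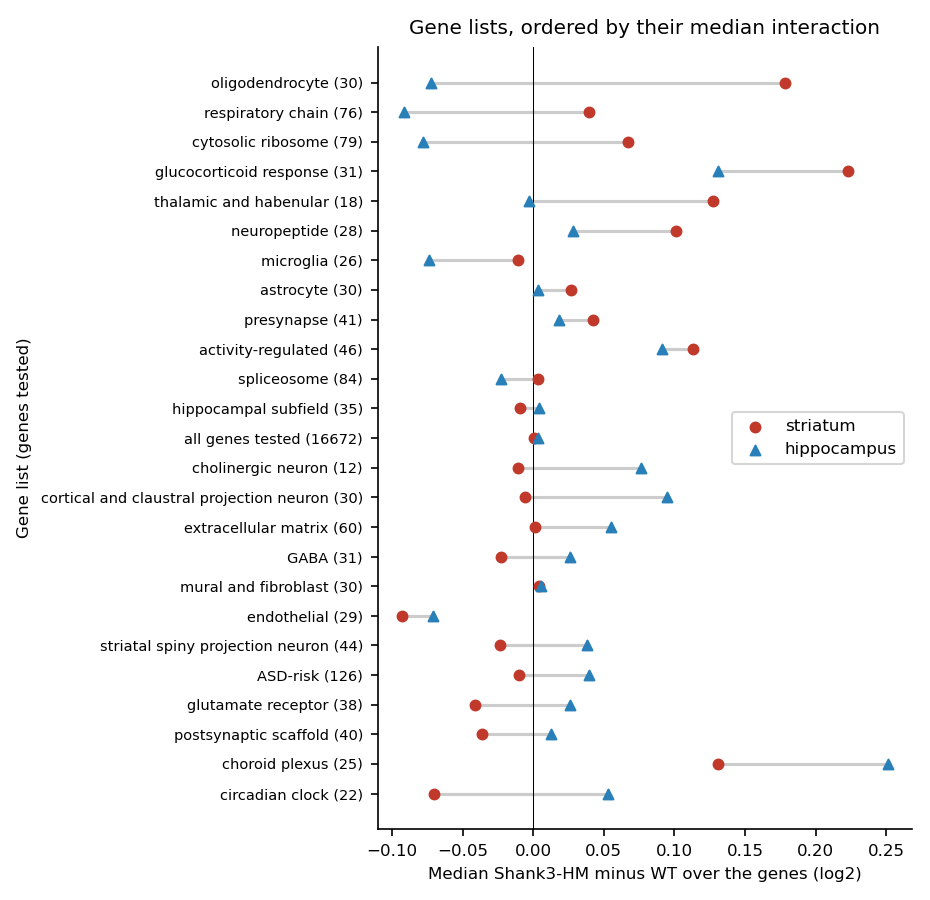
Median Shank3-HM effect (horizontal axis, log2) over the tested genes of each list in the striatum (red circles) and the hippocampus (blue triangles), with the number of genes in brackets and lists ordered by their median interaction (vertical axis). Oligodendrocyte genes are at the top (0.178 and -0.0723), circadian clock genes at the bottom (-0.0701 and 0.0532), and the medians over all genes lie near 0.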

How the data were processed

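RNA-seq of the striatum and hippocampus of WT and Shank3-HM mice was analysed (10 samples per region). The deposited signal values are normalized counts. Per the labels and their methods, the authors estimated counts with Salmon 1.1.0 against GRCm38, imported them with tximport and normalized them over all 45 samples with DESeq2 1.26.0. Whole reads could not be recovered (11.9% to 23.6% of values lay within 0.05 of a step of a whole multiple, against 10% by chance at a fixed step), so count models were not used and depth is unknown. Normalized totals, which are not depth, were 26118607 to 29568983.

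Values were transformed as log2(value + 1), and genes below a 20-sample mean of 10 were dropped; the added 1 understates changes of low genes. The 4 groups were fitted in limma 3.58.1 (R 4.3.3, intensity trend), and p-values were adjusted by Benjamini-Hochberg over 16672 genes. No samples were identical (highest Spearman correlation within a group 0.995). Members and gene lists were chosen with earlier results of these data known. Named are Shank3, genes called in each contrast (up to 30), the 12 smallest interaction p-values in each direction, the study's hippocampal genes, the 8 leading genes of opposite direction, and the 4 smallest interaction p-values of each of the 24 lists with its defining markers; of these, the text describes a part. Gene names and positions came from GENCODE (18120 of 18135 identifiers matched; 1018 of 1030 list genes), and promoters from RefSeq. Alternatives were 12 other settings, among them other filters, pseudocounts, scaling and blocks, and leaving out each of 20 samples.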

Additional observations from a re-analysis of the deposited data

Results flagged for a closer look

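The Shank3-HM effect differed between striatum and hippocampus by the interaction test for 6 genes. The difference, striatal minus hippocampal effect on the log2 scale, was 0.743 for Mas1, 0.476 for Rimbp2, 0.4 for Tpm1, 0.622 for Lamp5, -1.26 for Tyw3 and -0.778 for Necab1.

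A single sample stood far from the other 4 of its group in 10 of 127 groups of 5 checked for the genes described, by Dixon's test at the 95% level, which chance alone would flag in about 1 in 20 groups. In the striatum of Shank3-HM mice, sample 5 was low for Shank3 (4569 normalized counts) and Tyw3 (169.2) and high for Kitl (1775), sample 2 was high for Rimbp2 (6183), and sample 3 was high for Gstp2 (77.79). In the striatum of WT mice, sample 5 was low for Tpm1 (8139) and high for Sema4a (882.9). In the hippocampus, WT sample 1 was high for Lamp5 (1017) and Rps4l (709.0), and Shank3-HM sample 2 was low for Fdft1 (1529).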

How the results depend on the processing

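The count of called interactions (6) was 1 without the intensity trend, 12 with a pseudocount of 10, 12 with all 45 samples in the fit, 15 with sample weights and 13 without the 3 samples that stand apart (striatal WT 5 and hippocampal WT 1 and 4, chosen after seeing the data). The striatal count (33) was 60 with sample weights and 71 without the 3 samples. The hippocampal count (3) was 1 with a mean of at least 100 and 1 with a pseudocount of 10. The count for the mean of both regions (9) was 20 with a pseudocount of 10, 17 with all 45 samples and 36 with sample weights. Leaving out each sample in turn gave 1 to 18 interactions, 21 to 52 striatal, 2 to 5 hippocampal and 5 to 19 mean calls. The mean calls were 5 without hippocampal Shank3-HM 1, hippocampal WT 5 or striatal Shank3-HM 2 or 3, 19 without hippocampal Shank3-HM 4 or WT 4, and 17 without striatal WT 5. The cause was not tested.

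Whether the sample numbers pair the regions was checked. Among 10 pairs of striatal and hippocampal samples with the same genotype and number, the deviations from the group means correlated at 0.0177 to 0.207 (median 0.122), against a median of -0.0332 for other pairs, 6 exceeded 0.1, and 8 of 10 striatal samples correlated best with their own number. The labels give no shared mouse and not every pair exceeded 0.1, so the samples were not taken as paired, and the higher correlations of same-numbered samples are a hint from the data and not the design. With a replicate block, the interaction count was 2 with the mouse as a fixed block, 7 with the sample number as a block and 25 with the mouse as a random effect. With the fixed mouse block, Mas1 and Necab1 passed, and Rimbp2, Tpm1, Tyw3 and Lamp5 each had an adjusted p of 0.0688. The hippocampal count was 8 with the number block, and the count for the mean 5 with the random effect.

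Of the 6 interactions, none changed direction under any of 32 alternatives. The direction turned for Shank3 (0.033 without striatal Shank3-HM sample 5, and -0.079 to 0.033 over the samples left out) and, without the 3 samples, for Rps4l (-0.0078) and Chrm2 (0.012), all far from the threshold. Depth is unknown, so that the counting error of low genes could not be given.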

Other observations

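The study's own list of 101 genes for the striatum of Shank3-HM mice, chosen on these samples, had a median effect of 0.284 in the striatum and 0.00088 in the hippocampus, where 52 estimates were above 0 and 49 below. Of these genes, 70 had an unadjusted interaction p under 0.05 and 5 were called, and the striatal part of these values is not independent of the choice.

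Of genes with a more positive effect in the hippocampus that did not pass, Sec14l3, a lipid-binding protein of the Sec14 family, was at 6.48 to 20.6 normalized counts in hippocampal WT samples and at 19.8 to 49.2 in hippocampal Shank3-HM samples, with an interaction of -1.90 ± 0.40 (SE). Among genes with a more positive effect in the striatum, Mir670hg, a host transcript of a microRNA, was at 95.6 to 128 in striatal WT and at 181 to 338 in striatal Shank3-HM samples, with effects of 1.27 and 0.12.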
